A study of Rattus norvegicus with 4 samples.

Results

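The genes for mitochondrial ribosomal proteins were examined in rat embryonic stem cells (ESCs) with and without *Thop1*. They were taken as every protein-coding gene whose symbol starts with Mrpl or Mrps followed by a number, which gave 76 of the 34773 genes listed, 45 named for the large subunit (*Mrpl*) and 31 for the small subunit (*Mrps*). The rule used the symbol and the gene class alone and no measured value, though this gene family was picked for study with earlier results of these data known. Poly(A) RNA of 4 libraries was sequenced. The control, called WT here, was the ESC line DA-5-3 carrying a *Rex1*-GFP reporter, with 1 library. The other 3 libraries came from 3 *Thop1*-KO subclones of that line (#1, #2 and #3), made with Cas9 and picked as colonies after puromycin selection, so each is 1 clone. All 4 libraries carry the reporter. The methods describe the line as diploid, whereas the text deposited with the data calls the cells haploid. They also describe culture on feeder cells in medium with the inhibitors PD0325901 and CHIR99021 and with LIF.

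Mitochondria hold ribosomes of their own, which translate the few proteins encoded by mitochondrial DNA, all of them parts of the oxidative phosphorylation system. The ribosomal RNAs come from mitochondrial DNA, while every protein of these ribosomes is encoded in the nucleus, made in the cytosol and imported. The small subunit reads the messenger RNA, and the large subunit joins the amino acids. Some of the proteins have a counterpart in the bacterial ribosome, and the others are found only in mitochondrial ribosomes.

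The counts on genes summed to between 15405499 (WT) and 17936544 (#3), and 15028 genes passed the filter on low counts. *Thop1*, the targeted gene, was at 110, 92.5 and 149 CPM (counts scaled to a common library size) in #1, #2 and #3 and at 370 in WT, a log2 fold change of -1.66 with a standard error (SE) of 0.29 (adjusted p = 0.0187, edgeR's quasi-likelihood test, adjusted by Benjamini-Hochberg over all genes tested). All fold changes below are from that fit, are given as *Thop1*-KO over WT on the log2 scale and are called at an adjusted p under 0.05. With 1 library against 3, an exact permutation test reaches no p below 0.25, so each adjusted p rests on the spread among the 3 subclones. The difference between the genotypes cannot be told apart from a difference between the single WT culture and any other culture. The 10 ESC markers in the table summed to between 6301 and 7723 CPM in the 4 libraries, most of it *Pou5f1* (3889 to 4842 CPM). Among them *Esrrb*, *Tfcp2l1* and *Sall4* were called higher and *Utf1* lower. *Esrrb* was at 330, 286 and 328 CPM in #1, #2 and #3 and at 15.9 in WT, and *Utf1* at 622, 405 and 626 CPM in the subclones and at 1566 in WT. The 11 fibroblast markers, which feeder cells could bring, summed to 4185, 4557 and 4395 CPM in #1, #2 and #3 and to 1913 in WT. Most of this sum was *Fn1* (3764 to 3892 CPM in the subclones and 1640 in WT), the only one of the 8 tested that was called, as higher. *Thy1*, *Dcn* and *Lum* were at 0 in all 4 libraries. *Col1a1*, *Vim*, *Col3a1*, *Pdgfrb* and *Postn* had log2 fold changes above 0 (1.11, 0.65, 2.79, 1.10 and 1.56) and were not called. *Acta2* and *S100a4* had fold changes below 0 (-0.95 and -0.26 on the log2 scale) and were not called. The median over the 8 tested was 1.105. The part of such cells in the results on the mitochondrial ribosome was not tested, and in bulk RNA fewer cells of a type cannot be told apart from less RNA per cell.

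The tested mitochondrial ribosomal protein genes were on the whole somewhat lower in the *Thop1*-KO libraries than in WT, while few single genes passed the test. Of 76 genes, 74 were tested, 45 of the large and 29 of the small subunit. Their median log2 fold change was -0.52, against 0.06 over all genes tested, and it was below 0 in 60 of 74 (81.1%), against 48.1% of all genes tested. In 56 of the 74 genes, or 75.7%, WT was higher than every subclone, where 37.6% of all genes tested did so. In 8 genes, or 10.8%, WT was lower than every subclone, where 38.1% of all genes tested did so. In the other 10 genes WT lay within the range of the subclones. By edgeR's quasi-likelihood test 5 genes were called lower (6.76%) and 3 higher (4.05%). Over all genes tested, 777 (5.17%) were called lower and 1295 (8.62%) were called higher, so the share called lower was near that of the whole table. At an unadjusted p under 0.05, 30 of the 74 genes were lower (40.5%, against 14.9% of all genes tested) and 3 were higher (4.05%, against 19.1%). The number called lower depended on which subclones were in the fit. It was 2 without #1, 30 without #2 and 0 without #3, against 5 with all 3. Counting calls in either direction, 5, 34 and 1 of the 74 genes were called in these fits, against 8 with all 3 subclones. The share called over all genes tested, higher or lower, moved likewise, at 12.89%, 37.08% and 2.781%, against 13.79%. The direction did not turn in these fits, in which 63, 58 and 60 of the 74 fold changes were below 0.

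**Figure D1:**
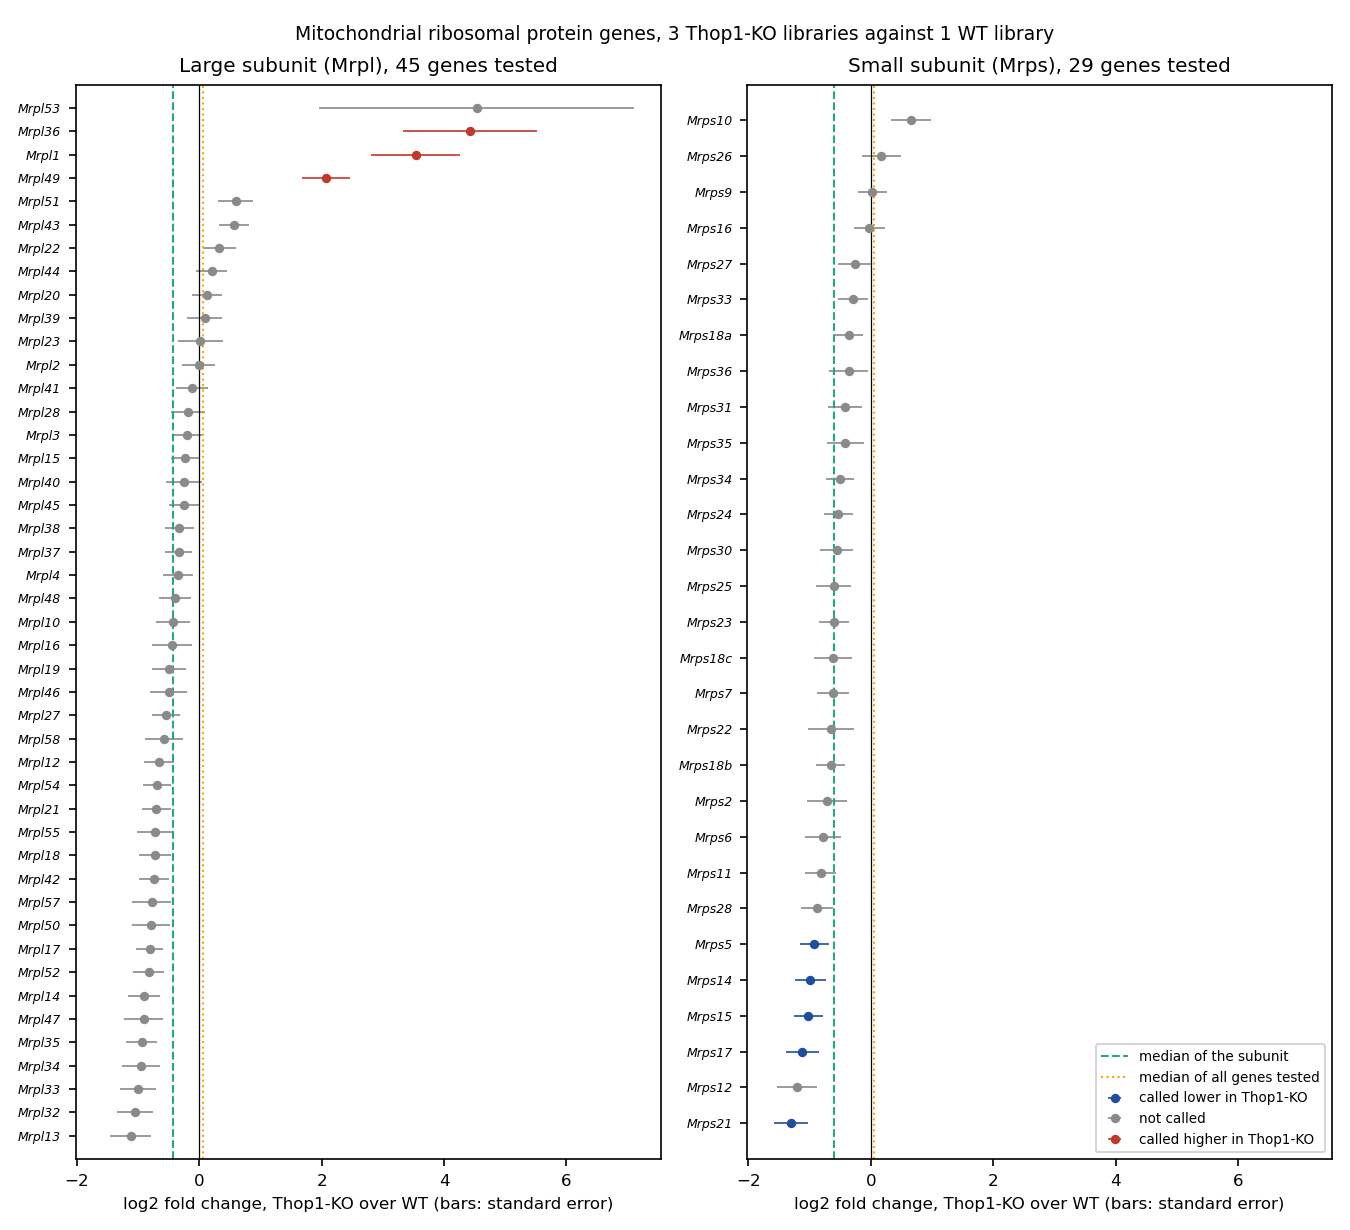
Log2 fold change of each tested gene, *Thop1*-KO over WT (x axis), with its standard error as a bar, for the large subunit on the left and the small subunit on the right. The dashed line is the median of the subunit (-0.43 large, -0.61 small) and the dotted line that of all genes tested (0.06). The 3 genes called higher are all of the large subunit and the 5 called lower all of the small subunit. Over all genes tested, 8.62% were called higher and 5.17% lower.

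Each subclone was also set against the WT library, which the 3 comparisons share, so they are not independent. The median over the 74 genes of log2 CPM in the subclone minus WT was -0.44 in #1, -0.47 in #2 and -0.59 in #3, and the subclone was lower than WT in 56, 63 and 63 of the 74 genes. Over all genes tested the subclone was lower in 7495, 7512 and 7316 of 15028. Subclone #3 was the lowest of the 3, being below #1 in 59 genes and below #2 in 50. The share of a library's counts that fell on these genes was 0.606% in #1, 0.607% in #2 and 0.549% in #3, a mean of 0.587% ± 0.0329 (SD, n = 3). In WT it was 0.760%, or 1.29 times that mean. The 95% Wilson intervals, which cover counting error only, ran from 0.755% to 0.764% in WT and reached no higher than 0.611% in the subclones. By the same intervals #3 also lay apart from #1 and #2, so they do not measure the spread between cultures. In the deposited FPKM values, which divide by gene length, the share was 0.825% ± 0.0464 (SD, n = 3) in the subclones and 0.909% in WT, a smaller ratio of 1.10. The subclones differed less from each other on these genes than on most. The range of log2 CPM over the 3 subclones had a median of 0.36 on the 74 genes, against 0.56 over all genes tested and 0.44 over genes in the same range of mean CPM.

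The small subunit was further below WT than the large one. The 45 large-subunit genes had a median log2 fold change of -0.43, with 34 below 0, 0 called lower and 3 called higher (6.67%). The 29 small-subunit genes had a median of -0.61, with 26 below 0, 5 called lower (17.2%) and 0 called higher. Over all genes tested, 5.17% were called lower and 8.62% higher, so the share called higher in the large subunit was below that of the whole table. The split of lower calls by subunit depended on the fit. DESeq2 called 5 large- and 6 small-subunit genes lower, and upper-quartile scaling 3 and 5. The filter of at least 10 counts in every library gave 2 and 5, and the fit without #2 gave 16 and 14. Of all genes in these fits, 15.1%, 14.44%, 14.93% and 37.08% were called, higher or lower, in the same order. WT was higher than every subclone in 32 large-subunit genes (71.1%) and 24 small-subunit genes (82.8%), against 37.6% of all genes tested. By subclone, the median difference from WT was -0.37, -0.42 and -0.48 for the large subunit and -0.50, -0.55 and -0.67 for the small subunit in #1, #2 and #3, so the small subunit was the lower one in every subclone against the same WT library. The counts on large-subunit genes were 1.85, 1.77 and 1.78 times those on small-subunit genes in #1, #2 and #3, and 1.62 times in WT. The gap between the medians was 0.18 on the log2 scale, and it was 0.13 without #1, 0.07 without #2 and 0.17 without #3. No p is given for this gap, since genes are not replicates and the design has 1 WT library. 

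**Figure D2:**
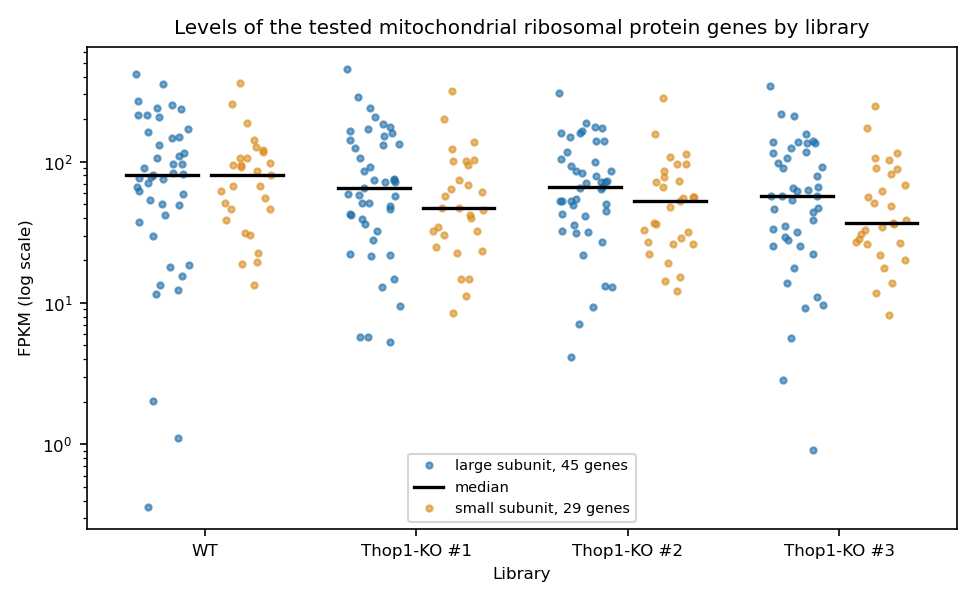
FPKM (y axis, log scale) of each tested gene in each library, large subunit in blue and small subunit in orange, with the median as a line. In WT the medians of the subunits were close, at 80.7 and 80.3 FPKM, whereas in the subclones they were 57.5 to 66.5 for the large and 36.6 to 52.7 for the small subunit.

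Symbols do not give the place of every protein. *Mrps18a* and *Mrps30* encode proteins that sit in the large subunit in spite of their names, and *Mrps36* encodes a protein now assigned to the 2-oxoglutarate dehydrogenase complex. With these placed by structure, the medians were -0.43 over 47 large-subunit genes and -0.62 over 26 small-subunit genes. *Mrps18a* was at 318, 281 and 249 FPKM in #1, #2 and #3 and at 363 in WT (log2 fold change -0.36, SE 0.23, adjusted p = 0.305, edgeR). Its relatives of the small subunit, *Mrps18b* and *Mrps18c*, had log2 fold changes of -0.66 (SE 0.23, adjusted p = 0.101) and -0.62 (SE 0.31, adjusted p = 0.210). *Mrps30* had -0.56 (SE 0.26, adjusted p = 0.185) and *Mrps36* -0.36 (SE 0.32, adjusted p = 0.452). WT was above all 3 subclones in each of these 5 genes, and none of them passed the test. WT was so placed in 75.7% of the 74 tested genes and in 37.6% of all genes tested.

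Genes of proteins classed as having a bacterial counterpart were further below WT than those of proteins classed as found only in mitochondria. *Mrps18c* was placed in the first kind, and its relatives *Mrps18a* and *Mrps18b* in the second. The 42 genes of the first kind had a median of -0.68, with 5 called lower (11.9%, against 5.17% of all genes tested) and 2 higher (4.76%, against 8.62%). The 31 of the second kind had a median of -0.40, with 0 called lower and 1 higher (3.23%). The first kind was also the shorter, with a median exon length of 945 bases against 1288. Among all genes tested of up to 1516 bases, 8.99% were called lower. The part of length in the gap between the kinds was not tested. Within the small subunit the medians were -0.80 over 16 genes with a bacterial counterpart and -0.46 over 10 genes without one. Within the large subunit they were -0.52 over 26 genes and -0.34 over 21 genes. This grouping is a description of the fitted values and was not tested.

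With all 4 libraries in the edgeR fit, all 5 genes called lower belong to the small subunit, and each encodes a counterpart of a bacterial protein. *Mrps21*, the counterpart of bacterial S21, was at 31.1, 31.4 and 23.2 CPM in #1, #2 and #3 and at 70.5 in WT. All 3 subclones lay below WT, and the log2 fold change of -1.30 (SE 0.28, adjusted p = 0.0317, edgeR) was the lowest among the 74 genes. *Mrps17*, the counterpart of S17, was at 42.9, 51.6 and 37.7 CPM in the subclones and at 95.5 in WT, a log2 fold change of -1.12 (SE 0.27, adjusted p = 0.0409). *Mrps15* was at 71.8, 72.9 and 61.2 CPM in the subclones and at 139 in WT. It encodes the counterpart of S15, which binds the ribosomal RNA of the small subunit directly in bacteria. Its log2 fold change was -1.02 (SE 0.24, adjusted p = 0.0376). *Mrps14*, the counterpart of S14, was at 44.3, 49.8 and 38.9 CPM in the subclones and at 87.8 in WT (log2 fold change -0.99, SE 0.26, adjusted p = 0.0498). *Mrps5*, the counterpart of S5, was at 59.6, 64.7 and 68.9 CPM in the subclones and at 122 in WT (log2 fold change -0.92, SE 0.23, adjusted p = 0.0470).

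In none of these 5 genes did the subclones overlap with WT, but this follows closely from the call by which they were picked. Over all genes tested, WT lay above every subclone in 37.6%. Subclone #3 was the lowest in 4 of the 5 genes and the highest in *Mrps5*. The calls stood close to the threshold. *Mrps15* and *Mrps21* were each called in 10 of 12 other settings, *Mrps17* and *Mrps5* in 6 and *Mrps14* in 5. Without #3 the adjusted p of *Mrps15* rose to 0.192, the highest among its settings, whose lowest was 0.0027. Without #3 that of *Mrps21* rose to 0.148, and its lowest was 0.0018. *Mrps17* ranged from 0.0015 to 0.187, *Mrps5* from 0.0065 to 0.188 and *Mrps14* from 0.0037 to 0.231, each with its highest value without #3, and these 3 genes were also not called without #1. With a correction of each library for gene length, *Mrps21*, *Mrps17* and *Mrps14* were not called. The fold changes kept their sign throughout, between -1.40 and -0.86 for *Mrps21* and between -1.13 and -0.94 for *Mrps15*.

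Other genes lay just outside the threshold. *Mrpl35*, *Mrps12*, *Mrpl17* and *Mrpl32* had adjusted p-values of 0.0529, 0.0560, 0.0571 and 0.0582 in the edgeR test. *Mrps12*, the counterpart of the bacterial protein S12 at the decoding centre, was at 54.0, 79.0 and 45.9 CPM in #1, #2 and #3 and at 137 in WT (log2 fold change -1.20, SE 0.33). *Mrpl13* was at 38.8, 56.5 and 33.2 CPM in the subclones and at 93.3 in WT (log2 fold change -1.12, SE 0.33, adjusted p = 0.0678). *Mrpl32*, whose product is matured by a protease of the inner membrane, was at 16.9, 21.2 and 17.4 CPM in the subclones and at 38.2 in WT (log2 fold change -1.05, SE 0.29). *Mrpl33* was at 49.6, 45.0 and 33.4 CPM in the subclones and at 85.1 in WT (log2 fold change -0.998, SE 0.29, adjusted p = 0.0664). These genes did not pass the test. WT lay above every subclone in all of them, as it did in 75.7% of the 74 genes and in 37.6% of all genes tested. The *Mrps12*, *Mrpl13* and *Mrpl32* levels were highest in #2 among the subclones, and those of *Mrpl33* were highest in #1.

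The 3 genes called higher belong to the large subunit and had low counts in WT. *Mrpl49*, which has no bacterial counterpart, had 414, 580 and 412 counts in #1, #2 and #3 and 95 in WT. That is 24.7, 32.8 and 22.9 CPM against 6.39, a log2 fold change of 2.07 (SE 0.39, adjusted p = 0.0231, edgeR). Its gene overlaps 551 bases of *Syvn1* on the opposite strand, and whether counting used the strand is not given in the sources used here. *Syvn1* itself had a log2 fold change of 0.22 (adjusted p = 0.561). *Mrpl1*, the counterpart of the protein of the bacterial L1 stalk, had 107, 83 and 58 counts in the subclones, against 6 in WT, a log2 fold change of 3.54 (SE 0.72, adjusted p = 0.0278). *Mrpl36*, the counterpart of L36, a very small protein of the large subunit, had 322, 286 and 75 counts in the subclones, against 9 in WT, a log2 fold change of 4.43 (SE 1.09, adjusted p = 0.0434). All 3 subclones lay above WT in these genes, which follows closely from the call and held in 38.1% of all genes tested. Subclone #3 was the lowest of the subclones in each. Without #3, *Mrpl49* had an adjusted p of 0.0747 and *Mrpl1* of 0.0648, the highest of their settings. The lowest were 4.2e-05 and 0.0010. For *Mrpl36*, the limma fit with a pseudocount of 1 on FPKM made no call. Its adjusted p there was 0.0512, the highest of its settings, whose lowest was 2.6e-06. With at least 10 counts asked of every library, *Mrpl1* and *Mrpl36* were not tested.

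**Figure D3:**
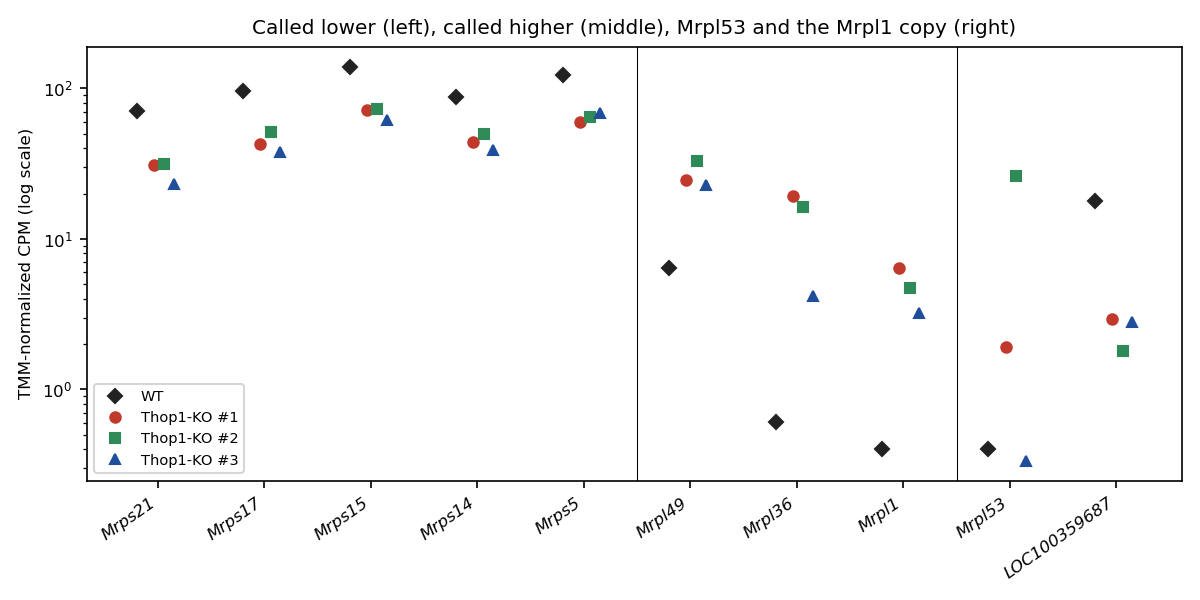
CPM after TMM normalization (y axis, log scale) in each library for the 5 genes called lower (left), the 3 called higher (middle), and *Mrpl53* with the *Mrpl1*-like gene LOC100359687 (right). WT is the black diamond and lies above all subclones on the left and below all subclones in the middle.

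A gene of like description to *Mrpl1* was called lower. LOC100359687, described as L1-like and annotated on chromosome 8, had 49, 32 and 50 counts in #1, #2 and #3 and 265 in WT. Its log2 fold change was -2.83 (SE 0.40, adjusted p = 0.0108, edgeR). *Mrpl1* itself is annotated on chromosome 14. The counts on both genes together were 156, 115 and 108 in the subclones and 271 in WT, so the sum was lower in every subclone, whereas *Mrpl1* alone was higher. How alike the sequences are, and whether reads of one were counted on the other, was not tested, so both values are uncertain. The genes described as copies of *Mrpl36* and *Mrpl53* were at 0 in all 4 libraries, and those of *Mrpl41* and *Mrpl42* had at most 2 counts.

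*Mrpl53* had the highest fold change of all and did not pass the test. Its counts were 32 in #1, 464 in #2, 6 in #3 and 6 in WT, so #2 stood far above the other libraries and #3 was level with WT. The log2 fold change was 4.53 with an SE of 2.57 (adjusted p = 0.253, edgeR), and it was 1.45 without #2. Of the other genes that were not called, *Mrps10* had 51.9, 35.7 and 46.2 CPM in #1, #2 and #3 and 28.3 in WT (log2 fold change 0.65, SE 0.32, adjusted p = 0.200), and *Mrpl51* had 51.5, 52.3 and 42.7 CPM in the subclones and 32.4 in WT (log2 fold change 0.59, SE 0.28, adjusted p = 0.189). WT lay below every subclone in both, as it did in 38.1% of all genes tested. In all, 64 of the 74 log2 fold changes lay between -1 and 1, and the median SE was 0.27, against 0.43 over all genes tested.

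The levels of the genes, which can be compared between genes only per length, spanned a wide range of FPKM. The highest was *Mrpl28*, with 453, 308 and 344 FPKM in #1, #2 and #3 and 419 in WT, so WT lay within the subclones. *Mrps18a* was next in this order. *Mrpl23*, whose bacterial counterpart lies at the mouth of the exit tunnel, had 217 FPKM ± 68.2 (SD, n = 3) in the subclones and 214 in WT. *Mrpl2*, whose bacterial counterpart lies close to the site of peptide bond formation, had 205 ± 37.6 and 207. These 3 large-subunit genes of high level had log2 fold changes of -0.18, 0.02 and -0.01, each smaller than its SE. *Mrpl33* differed from these 3 genes, with 178 ± 36.4 FPKM in the subclones and 356 in WT. In the small subunit, *Mrps24* had 178 ± 22.0 FPKM in the subclones and 257 in WT (log2 fold change -0.53, adjusted p = 0.169), and *Mrps34* had 99.7 ± 2.89 and 142 (log2 fold change -0.50, adjusted p = 0.170). *Mrps9* had 122 ± 13.3 and 120, so it did not differ beyond its spread. The neighbours *Mrpl23* and *Mrpl2* in this order also overlapped with each other over the subclones.

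At the low end, *Mrpl1* had 4.24 FPKM ± 1.44 (SD, n = 3) in the subclones and 0.359 in WT. *Mrpl47* had 6.15 ± 0.772 in the subclones and 11.6 in WT (log2 fold change -0.91, adjusted p = 0.0993). *Mrpl57* had 10.5 ± 2.07 and 18.03, *Mrpl50* 10.8 ± 2.01 and 18.7, *Mrps36* 10.5 ± 2.11 and 13.5, and *Mrps2* 11.5 ± 2.84 and 18.9. The last 4 overlapped with each other over the subclones, and *Mrpl1* and *Mrpl47* overlapped with each other. WT was the highest library in each of these genes except *Mrpl1*, as it was in 75.7% of the tested mitochondrial ribosomal protein genes. *Mrpl57* overlaps *Ska3*, and *Mrpl47* overlaps *Actl6a*, on the opposite strand. In all, 11 of the 76 genes overlap another gene of the table, 10 of them a protein-coding one on the other strand, so their counts are uncertain in the same way as those of *Mrpl49*.

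The 2 genes that did not pass the filter are both named *Mrps21l* and lie on chromosome 18, each with 267 bases of exon sequence. One had 9 counts in WT and 0 in the subclones, and the other had 0 in all 4 libraries. Added to *Mrps21*, they gave 522, 555, 416 and 1056 counts in #1, #2, #3 and WT, so they changed little in the value of that gene.

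The genes are short, and short genes as a group were lower in the subclones. Their exon length had a median of 1084 bases, against 2096 over all genes tested. Split into 3 equal classes by length, all genes up to 1516 bases formed the shortest class. There the median log2 fold change was -0.33 over 5014 genes, and -0.55 over the 50 genes of the mitochondrial ribosome among them. In the middle class (up to 2856 bases) it was 0.09 over all genes and -0.42 over 23 genes of the mitochondrial ribosome. Only *Mrps2* lay in the longest class, with -0.72 against a median of 0.31. In the shortest class 8.99% of all genes and 4.0% of those of the mitochondrial ribosome were called lower. In the middle class these shares were 4.07% and 13.0%. WT lay above every subclone in 50.5% of all genes of the shortest class and in 70.0% of those of the mitochondrial ribosome. In the middle class it did so in 34.9% and 87.0%. Fold changes below 0 made up 60.3% and 76.0% in the shortest class, and 46.3% and 91.3% in the middle class. After a correction of each library for gene length, the medians were -0.30 for the large and -0.45 for the small subunit, 55 of the 74 values were below 0, and 2 genes were called lower (*Mrps15* and *Mrps5*) and 3 higher.

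**Figure D4:**
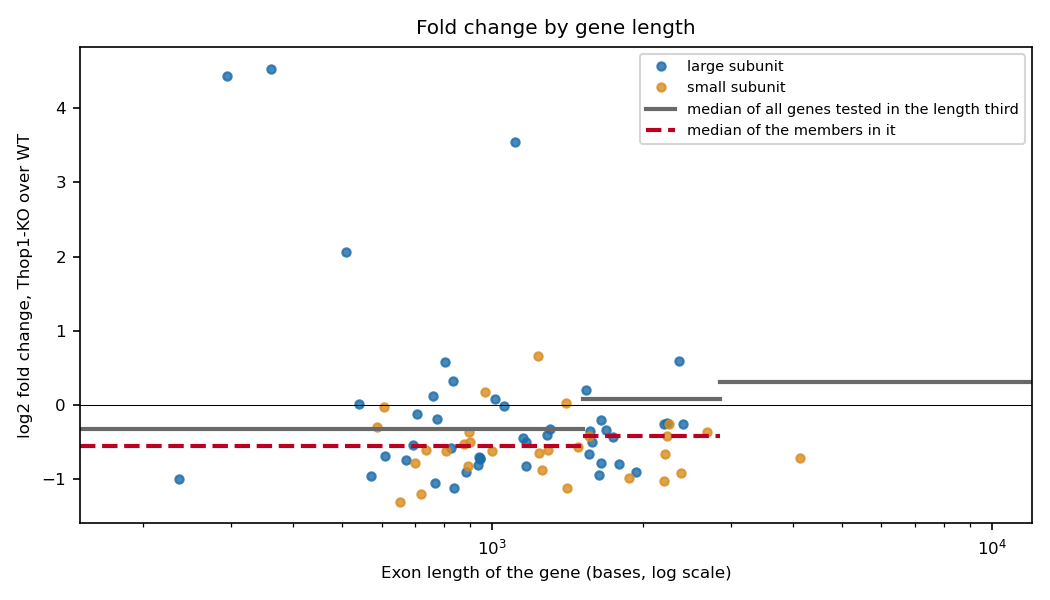
Log2 fold change, *Thop1*-KO over WT (y axis), against the exon length of each tested gene in bases (x axis, log scale), large subunit in blue and small subunit in orange. Solid lines are medians of all genes tested in each length class (-0.33, 0.09 and 0.31) and dashed lines those of the mitochondrial ribosomal protein genes in the shortest and middle class (-0.55 and -0.42).

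Proteins of the mitochondrial ribosome listed under other symbols gave values of the same order. *Chchd1* had a log2 fold change of -0.90, *Aurkaip1* of -0.69, *Ptcd3* of -0.51, *Gadd45gip1* of -0.27 and *Dap3* of 0.15, and 0 of these 5 were called. Their median was -0.51. Another 4 genes are described as ribosomal proteins of this kind but have a symbol that the rule did not match, and they were picked by description after the tables had been seen. The gene written mrpl11 had 966, 1099 and 923 counts in #1, #2 and #3 and 1662 in WT and was called lower (log2 fold change -0.97, SE 0.24, adjusted p = 0.0446, edgeR). It was not called without #1 (adjusted p = 0.0651) or without #3 (0.219), and its lowest adjusted p in any setting was 0.0035. The gene written mrpl9 had 3160, 1891 and 3377 counts in the subclones, against 1076 in WT (log2 fold change 1.15, SE 0.39, adjusted p = 0.0925). The gene written mrpl24 had a log2 fold change of -0.22 and NEWGENE_1308196, described as L30, of -0.74, and neither was called.

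Few other genes of mitochondrial gene expression were called. Shares called in these lists are to be read against 8.62% higher and 5.17% lower over all genes tested. Among 12 translation factors the median was -0.30, with 0 called lower and 1 called higher (8.33%). This was *Tsfm*, the exchange factor that recharges the elongation factor Tu, at 70.0, 63.1 and 66.3 CPM in #1, #2 and #3 and 16.02 in WT (log2 fold change 2.05, SE 0.29, adjusted p = 0.0111). The list of enzymes that charge mitochondrial transfer RNAs held 23 genes, 2 of them named *Gatc*. One *Gatc* gene had 2, 47 and 3 counts in #1, #2 and #3 and 0 in WT and was not called. Over the 23 genes the median was 0.47, with 3 called higher (13.0%) and 0 lower. They were *Lars2* (log2 fold change 2.04, adjusted p = 0.0152), *Aars2* (1.75, adjusted p = 0.0134) and *Gatb*, part of the enzyme that makes glutaminyl-tRNA (1.41, adjusted p = 0.0382). Of 28 tested genes for ribosome assembly and ribosomal RNA modification, with a median of -0.14, 1 was called higher (3.57%) and 2 lower (7.14%). *Trub2*, a pseudouridine synthase, was higher (log2 fold change 2.09, adjusted p = 0.0133). *Slirp*, a partner of Lrpprc in keeping mitochondrial messenger RNA stable, was lower (-1.63, adjusted p = 0.0278), and so was *Mterf3*, which acts in ribosome assembly and transcription (-1.68, adjusted p = 0.0271). Of 12 tested genes for mitochondrial transcription and its nuclear regulators, with a median of -0.02, 1 was called in each direction (8.33%). *Esrra*, a nuclear receptor, was higher (1.76, adjusted p = 0.0343) and *Tfb2m*, a mitochondrial transcription factor, lower (-1.68, adjusted p = 0.0310). Without #3 none of these 9 genes was called, with adjusted p-values from 0.0523 (*Tsfm*) to 0.151 (*Tfb2m*), and without #1 *Gatb* was not called (adjusted p = 0.0530). The lowest adjusted p over the settings was 1.8e-07 for *Tsfm*, 0.0012 for *Gatb* and 0.0021 for *Tfb2m*.

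The genes are spread over 19 chromosomes, with at most 12 on one, and the 8 called genes lie on 7 of them. The only pair within 20000 bases of each other was *Mrpl46* and *Mrps11* on chromosome 1, which lie head to head with 71 bases between them. Promoter windows of 300 bases, 250 before and 50 after the gene start, were taken from RefSeq (assembly GRCr8) and matched 58 of the genes. The windows of *Mrpl46* and *Mrps11* overlap, so that stretch is counted under both. Each motif was searched on both strands. The ETS type motif CCGGAAG was found in 32.8% of these windows, against 8.75% of all 33469 windows of the table, and in similar shares of the large (33.3%) and small (31.8%) subunit. The YY1 type motif AAGATGGCG was found in 15.5%, against 1.73%. The NRF1 type motif with GCGC, 2 free bases and GCGC was found in 17.2%, against 5.58%, with 22.2% in the large and 9.09% in the small subunit. The windows of the genes had a median GC content of 55.8%, against 51.7% over all windows.

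The windows of 3 genes are shown, 2 with these motifs and 1 without. *Mrpl36*, called higher, holds the ETS type motif and, on the opposite strand, the YY1 type motif, which are in capitals. *Mrpl32*, just outside the threshold on the lower side, holds the NRF1 type motif, also in capitals. *Mrps15*, called lower, holds none of the motifs and is all in lower case. They are written 5′ to 3′ on the strand of the gene, at chr1:31795072-31795371 (minus strand), chr17:55260401-55260700 (plus strand) and chr5:143605891-143606190 (plus strand).
Mrpl36: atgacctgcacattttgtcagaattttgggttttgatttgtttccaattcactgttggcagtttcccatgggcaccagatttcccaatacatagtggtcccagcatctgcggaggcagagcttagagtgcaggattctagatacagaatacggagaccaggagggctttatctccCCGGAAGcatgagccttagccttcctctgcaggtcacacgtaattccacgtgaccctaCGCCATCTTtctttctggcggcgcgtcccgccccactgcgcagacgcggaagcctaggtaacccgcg
Mrpl32: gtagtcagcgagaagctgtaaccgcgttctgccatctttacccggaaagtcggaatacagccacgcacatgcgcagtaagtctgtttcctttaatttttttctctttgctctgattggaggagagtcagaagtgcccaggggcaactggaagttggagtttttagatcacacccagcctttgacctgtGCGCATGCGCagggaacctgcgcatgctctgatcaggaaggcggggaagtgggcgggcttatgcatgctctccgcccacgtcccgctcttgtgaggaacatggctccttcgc
Mrps15: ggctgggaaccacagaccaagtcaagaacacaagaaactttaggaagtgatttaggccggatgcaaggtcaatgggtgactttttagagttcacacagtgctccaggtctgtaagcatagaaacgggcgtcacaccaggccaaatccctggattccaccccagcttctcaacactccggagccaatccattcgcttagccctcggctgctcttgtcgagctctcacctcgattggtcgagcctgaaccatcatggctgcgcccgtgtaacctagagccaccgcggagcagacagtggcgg
Among the called genes with a matched window, *Mrpl36* was the only one with any of the motifs searched, while *Mrpl1*, *Mrpl49*, *Mrps14*, *Mrps15*, *Mrps17* and *Mrps5* had none. No window of *Mrps21*, also called lower, was used. Many windows of genes that were not called held none of the motifs either, and a link between motifs and calls was not tested. A match of letters is a description of the window, and binding was not measured here.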

How the data were processed

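RNA was poly-T selected and made into libraries with the NEBNext Ultra kit. The authors cleaned the reads with the FASTX toolkit. The submitters' processing notes name HISAT2 2.0.5 and featureCounts 1.5.0-p3, while the genome build and the use of strand are not given in the sources used here. The authors deposited raw counts per gene and FPKM values, in which each count is scaled by the length of its gene and by a factor of its library.

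Counts were tested with edgeR 4.0.16 in R 4.3.3 (TMM, filterByExpr with a minimum count of 10, quasi-likelihood test, Benjamini-Hochberg adjustment over 15028 genes). The script was tested on simulated counts in which 200 genes were changed. Of these, 0 were called at a 2-fold change, 41% at a 4-fold change and 74.5% at an 8-fold change. The SE is the absolute log2 fold change divided by the square root of F. Alternatives were DESeq2 size factors, upper-quartile and library-size scaling, no filter, at least 10 counts in every library, a loess length correction (span 0.3), DESeq2 1.42.0, limma 3.58.1 (log2 FPKM with a pseudocount of 1 or 0.1), and leaving out each subclone. Differences per subclone used CPM with an offset of 0.5.

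The genes examined and the lists were chosen with earlier results of these data known. Named genes are those called, the 3 largest uncalled fold changes each way, the 4 highest and 4 lowest in FPKM per subunit, genes whose place differs from their symbol, the *Mrps18* relatives, genes removed by the filter, and genes called within a list. Genes near the threshold, overlapping genes and copies were named in addition, after their values were seen. Lists of primitive endoderm markers (7.67 to 10.4 CPM in sum) and early differentiation markers (112 to 148 CPM, *Nes* called lower) were also summed. No 2 libraries agreed within sampling noise by a chi-square test of their counts. Protein sequences were not used here. Tables used pandas 2.3.3 and scipy 1.17.1, and plots matplotlib 3.10.9.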

Additional observations from a re-analysis of the deposited data

How the results depend on the processing

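No paired analysis was possible because the control has 1 library. With all 3 subclones, 8 of the 74 genes were called, 5 lower and 3 higher. The total was 5 with library-size scaling, 5 with the length correction and 14 with DESeq2. It was 4 with limma at a pseudocount of 1 and 4 at 0.1, and 1 to 34 with 1 subclone left out. Of all genes in each fit, 13.79% were called in the main fit, 13.59% with library-size scaling and 12.02% with the length correction. The share was 15.1% with DESeq2, 14.44% with upper-quartile scaling, 12.7% and 12.42% with limma, and 2.781% to 37.08% with 1 subclone left out. The number called lower was 8 with upper-quartile scaling, 2 with library-size scaling, 2 with the length correction, 11 with DESeq2, 2 and 1 with limma, and 0 to 30 with 1 subclone left out. The number called higher was 1 with at least 10 counts in every library and 1 to 4 with 1 subclone left out. Over all genes, 2072 were called, and 418 to 5572 with 1 subclone left out. The large-subunit median was -0.53 with upper-quartile scaling, -0.37 with library-size scaling, -0.30 with the length correction and -0.49 to -0.40 with 1 subclone left out, and the small-subunit median was -0.71 with upper-quartile scaling and -0.45 with the length correction. The gap between the subunits was 0.138 with at least 10 counts in every library and 0.068 to 0.167 with 1 subclone left out. The share of the library on these genes was 0.172 percentage points lower in the subclones by counts, and the difference was -0.084 points by FPKM. Fold changes near 0 changed sign. *Mrpl2* was at 0.050 with library-size scaling, 0.014 with no filter, 0.227 with the length correction and -0.149 to 0.125 with 1 subclone left out, and *Mrpl23* at -0.092 with upper-quartile scaling, -0.0322 and -0.0325 with limma and -0.239 (without #1) to 0.230 with 1 subclone left out. *Mrpl28* was at 0.17 with the length correction, and *Mrps9* at -0.080 with upper-quartile scaling and -0.082 (without #1) to 0.075 with 1 subclone left out. The cause was not tested. The single WT library and the low WT counts of *Mrpl1* and *Mrpl36* limit these values.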

Other observations

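Values of some genes beside or overlapping a mitochondrial ribosomal protein gene follow, picked after they were seen. LOC679739, described as the iron-sulfur protein 6 of NADH dehydrogenase, lies 2638 bases from *Mrpl36*. It had 60, 6 and 5 counts in #1, #2 and #3 and 937 in WT (log2 fold change -5.50, SE 1.04, adjusted p = 0.0228, edgeR), so it was lower in every subclone while *Mrpl36* was higher in every subclone. *Vps51*, 10532 bases from *Mrpl49*, had 3933, 2572 and 4480 counts in the subclones, against 870 in WT (log2 fold change 1.84, SE 0.38, adjusted p = 0.0289), while the nearer genes LOC687780, *Syvn1*, *Znhit2* and *Tm7sf2* were not called. *Ska3*, which overlaps *Mrpl57* a gene that was not called, on the opposite strand, had 422, 822 and 561 counts in the subclones, against 1347 in WT (log2 fold change -1.40, SE 0.35, adjusted p = 0.0464). *Gga3*, which overlaps *Mrps7*, had 1969, 1873 and 2198 counts in the subclones, against 873 in WT (log2 fold change 0.97, adjusted p = 0.0508) and was not called, and *Mrps7* had a log2 fold change of -0.62 and was not called either.

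The regulators whose motifs were searched were themselves not called. *Nrf1* had a log2 fold change of 0.15 (SE 0.23, adjusted p = 0.678), *Gabpa*, which encodes an ETS factor, of -0.89 (SE 0.45, adjusted p = 0.210) and *Yy1* of 1.03 (SE 0.29, adjusted p = 0.0634). *Yy1* was at 41.3, 49.9 and 42.7 CPM in #1, #2 and #3 and at 21.9 in WT, and *Gabpa* at 8.59, 19.1 and 14.5 CPM in the subclones and 26.0 in WT. *Nrf1* was at 103, 110 and 104 CPM in the subclones and 95.3 in WT. WT lay outside the range of the subclones in all 3 genes, which is common in the whole table. Over all genes tested, WT lay above every subclone in 37.6% and below every subclone in 38.1%.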
